A study of Bos taurus with 30 samples.

Results

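The genes described here form the MHC class I antigen presentation pathway of cattle and were chosen by symbol. They are the heavy chain genes BOLA (Entrez 515712) and JSP.1 (Entrez 407173), the light chain gene B2M (Entrez 280729), the peptide transporter genes TAP1 (Entrez 524959) and TAP2 (Entrez 281586), TAPBP (Entrez 504335), the immunoproteasome genes PSMB8 (Entrez 282013) and PSMB9 (Entrez 510593), and the regulator NLRC5 (Entrez 782441). All 9 were found by Entrez ID among the 35092 gene rows of the count table, of which 31630 had a symbol, and all 9 passed the filter on low counts in each comparison.

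The genes were measured by poly(A) RNA sequencing in elongated Bos taurus embryos at day 15, produced in vitro (IVP) or in vivo (IVV). The embryonic disc (ED), from which the fetus forms, gave 7 IVP and 9 IVV libraries. The surrounding extra-embryonic membranes (EEM) gave 6 IVP and 8 IVV libraries. The 30 libraries came from 17 embryos, 8 IVP and 9 IVV, and 13 of them, 5 IVP and 8 IVV, gave libraries of both tissues. Total counts per library were between 48713218 and 63037371.

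Oocytes for the IVP embryos came from slaughterhouse ovaries, and the embryos grew in serum-free medium before transfer to a pair of Holstein recipient cows. The IVV embryos came from a pair of superovulated Holstein donor cows, each inseminated with semen of the bull that also sired the IVP embryos. Dams, and with them the maternal MHC haplotypes, therefore differed between the procedures and cannot be told apart from them. The same holds for the uterus in which the embryos elongated. Embryos of a procedure shared these cows, so they are not fully independent. The labels give neither sex nor morphology of the embryos. XIST, the transcript of the inactive X chromosome, stayed between 0 and 0.591 CPM (counts scaled to a common library size) in the 13 IVP libraries and between 0.0153 and 0.215 CPM in the 4 libraries of the IVV embryos VE3 and VE5. In the other 13 IVV libraries it lay between 44.9 and 421 CPM, so that XIST nearly followed the procedure. Sex, so far as XIST marks it, can therefore hardly be told apart from the procedure.

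Class I molecules show peptides from inside the cell to T cells. The proteasome cuts proteins into peptides, and the subunits encoded by PSMB8 and PSMB9 replace constitutive ones to form the immunoproteasome. The transporter of TAP1 and TAP2 carries the peptides into the endoplasmic reticulum, where tapasin, the product of TAPBP, bridges it to the heavy chain. The heavy chain reaches the cell surface together with beta-2-microglobulin, encoded by B2M. NLRC5 switches on transcription of most of these genes, and interferon raises it. The trophoblast of many mammals holds class I low in pregnancy, when the conceptus meets the immune system of the mother.

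Cattle class I heavy chain genes are polymorphic and alike in sequence. The reads were aligned to a single reference genome, and how reads with several matches were handled is not given in the sources used here. The count of a heavy chain gene may therefore depend on the allele an embryo carried, which was not tested, and the split of reads between BOLA and JSP.1 is uncertain. In the RefSeq gene order, PSMB8, TAP1 and PSMB9 are direct neighbours. TAP2, TAPBP and the heavy chain genes lie on the same chromosome, at distances not given here, while B2M and NLRC5 are on other chromosomes. The libraries were not stranded, so reads from an overlapping transcript of the opposite strand would be counted as well. Since gene lengths were not at hand, levels are compared between samples and not between genes.

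The largest differences were between tissues. In the 13 embryos with both tissues, 5 of the 9 genes were higher in the ED, BOLA, JSP.1, TAPBP, NLRC5 and PSMB8, where 14.4% of the 16784 genes tested were called higher. TAP1 alone was lower in the ED, a direction called for 10.1% of all genes. The test was edgeR's quasi-likelihood test with the embryo as a block, at an adjusted p under 0.05. The median log2 difference of the 9 genes was 1.32, and that of all genes tested was -0.091. Within the 8 IVV embryos, 5 genes were called higher and 1 lower (15.6% and 6.55% of all genes). Within the 5 IVP embryos, JSP.1 was called higher and 0 genes lower (4.18% and 0.649% of all genes). At an unadjusted p under 0.05, 4 genes were higher and 2 lower in the ED of the IVP embryos, and DESeq2 called 2 genes, both higher. Of all genes, 9.26% were higher and 7.7% lower at that p, and DESeq2 called 7.16%.

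Between procedures, few of the genes were called. In the ED, BOLA and PSMB8 were lower in IVP, against 5.08% of the 15733 genes tested, and 0 were higher, against 1.84%. Of the 9 log2 fold changes in the ED, 8 were negative, with a median of -0.54. At an unadjusted p under 0.05, 3 genes were lower and 0 higher, and DESeq2 called 3 lower and 0 higher. Of all genes, 13.2% were lower and 7.95% higher at that p, and DESeq2 called 10.9%. In the EEM, B2M was higher in IVP, against 2.08% of the 14718 genes tested, and 0 were lower, against 1.42%. There, 7 of the 9 log2 fold changes were positive, with a median of 0.47. At an unadjusted p under 0.05, 4 genes were higher and 0 lower in the EEM, and DESeq2 called 1, which was higher. Of all genes, 8.28% were higher and 5.31% lower at that p, and DESeq2 called 5.33%. Both comparisons held 1 surrogate variable. The ED and EEM libraries come largely from the same embryos, so the comparisons are not independent.

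The transcripts of BOLA and JSP.1 were more abundant in the disc than in the membranes in every embryo with both tissues, by a ratio that was as low as 2.1 for BOLA in IVP14 and 1.75 for JSP.1 in IVP10. BOLA lay between 0.891 and 27.3 CPM in the ED (median 3.7, n = 16) and between 0 and 1.79 CPM in the EEM (median 0.503, n = 14). Of the 16 ED libraries, 13 lay above all EEM libraries. In the 8 IVV pairs, log2 CPM of BOLA was between 2.45 and 7.48 higher in the ED, with a median of 3.67. In the IVP pairs it was higher in 5 of 5, by between 1.06 and 3.42. The fit put the difference over all 13 embryos at 3.28 (SE 0.479, adjusted p = 3.94e-05 from edgeR). BOLA had 0 counts in the EEM of VE3, which makes the fitted size depend on the small count that edgeR adds.

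JSP.1 ranged from 0.508 to 12.9 CPM in the ED (median 6.17) and from 0.09 to 5.88 CPM in the EEM (median 1.44). It was higher in the ED of 13 of 13 embryos. The fitted log2 difference was 2.47 (SE 0.313, adjusted p = 7.59e-06). JSP.1 was also called within the IVP embryos alone, at 1.65 (SE 0.42, adjusted p = 0.0235), a call that was lost without IVP14 (adjusted p = 0.12) or IVPF13 (adjusted p = 0.104), and without the embryo as a replicate block (adjusted p = 0.356). In bulk tissue, fewer cells that express a gene and less RNA of it per cell cannot be told apart.

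The sum of BOLA and JSP.1, which does not depend on how reads were split between these rows, gave the same picture. In the ED it was 15.1 ± 11.0 CPM in IVV (SD, n = 9) and 8.74 ± 5.77 CPM in IVP (SD, n = 7). In the EEM it was 1.42 ± 0.986 CPM in IVV (SD, n = 8) and 4.05 ± 2.52 CPM in IVP (SD, n = 6). The sum in the ED was between 2.22 and 85.3 times that in the EEM of the same embryo (median 6.2, 13 of 13 embryos above 1). The lowest sum was 5 counts, in the EEM of VE3, and the highest was 2515 counts, in the ED of VE5.

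**Figure D1:**
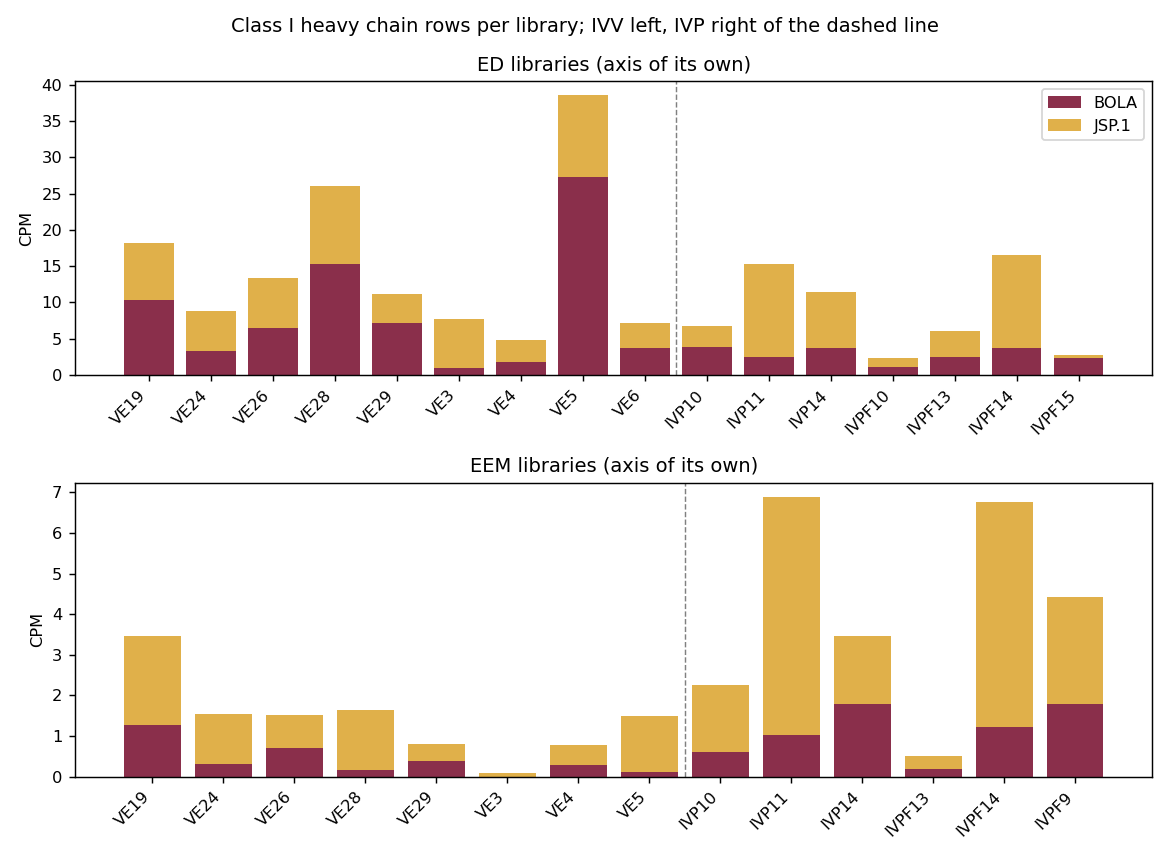
Stacked CPM of BOLA and JSP.1 (y axis) in each ED library (upper panel) and EEM library (lower panel), with embryos on the x axis and IVV left and IVP right of the dashed line. The panels have different axes: the ED of VE5 reaches 38.6 CPM, while the highest EEM library, that of IVP11, reaches 6.89 CPM.

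The make-up of the sum differed from embryo to embryo. JSP.1 held 18.4% of the summed counts in the ED of IVPF15 (29 of 158 counts, 95% exact binomial interval 12.7% to 25.3%). In the ED of VE3 it held 88.4% (412 of 466 counts, interval 85.2% to 91.2%). These intervals cover counting error only, and they do not overlap. They take each count as independent, and would be too narrow if both mates of a read pair were counted. In the EEM, the JSP.1 share ran from 48.2% in IVP14 to 100% in VE3, where the base was 5 counts. The share was higher in the EEM than in the ED of the same embryo in 11 of 13 embryos, by a median of 11.6 percentage points. Some embryos kept nearly the same share in both tissues, as IVP11 did at 84.3% in the ED and 85.2% in the EEM. In VE5 it was 29.2% in the ED and 92.2% in the EEM, on 77 counts.

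Other rows of class I heavy chain genes held few reads. BOLA-NC1 (Entrez 510417), a non-classical class I gene, was between 0.0962 and 1.92 CPM in the ED and between 0 and 0.341 CPM in the EEM. It was higher in the ED of 13 of 13 embryos, with a fitted log2 difference of 3.14 (SE 0.463, adjusted p = 4.26e-05). At most 3 counts were found in 8 of its 14 EEM libraries. A further row named BoLA (Entrez 533050), in whose span RefSeq places other genes, was between 0.287 and 1.39 CPM in the ED and between 0 and 0.822 CPM in the EEM. It was higher in the ED of 12 of 13 embryos (log2 difference 1.61, SE 0.458, adjusted p = 0.0145).

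**Figure D2:**
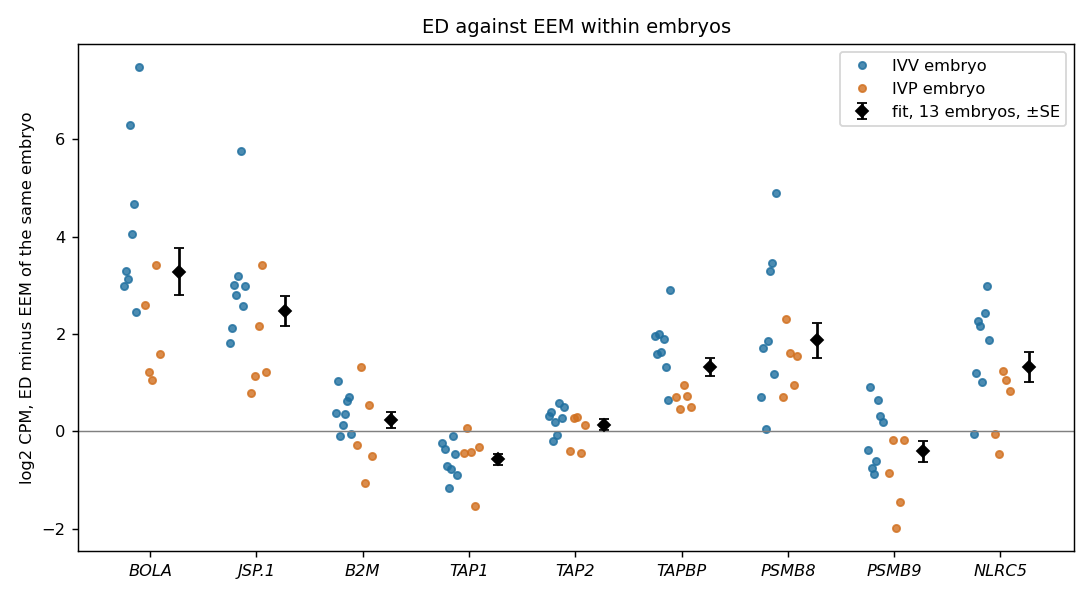
Log2 CPM of the ED minus that of the EEM (y axis) for each of the 9 genes (x axis); circles are the 13 embryos, coloured by procedure, and diamonds are the fitted difference with its SE. All circles of BOLA, JSP.1, TAPBP and PSMB8 lie above 0, and 12 of 13 circles of TAP1 lie below it.

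Between procedures, BOLA was lower in the ED of IVP embryos, at 2.8 ± 1.03 CPM (SD, n = 7) against 8.47 ± 8.4 CPM in IVV (SD, n = 9). The IVP libraries lay between 1.11 and 3.86 CPM (median 2.47) and the IVV libraries between 0.891 and 27.3 CPM (median 6.51). The groups overlapped, since VE3, VE4, VE24 and VE6 lay below the highest IVP library, and the spread was far wider in IVV. The log2 fold change was -1.68 (SE 0.506, adjusted p = 0.0439). This call lies close to the threshold. It was lost in 12 of the 16 fits that left out a library, and without VE5 the log2 fold change was -1.04 (adjusted p = 0.138). It was also lost with 2 surrogate variables (adjusted p = 0.107), with the title letter as a term (0.0615), under the stricter filter of 10 counts per library (0.053) and with the surrogate variable taken from scaled counts (0.0654), the last chosen after seeing the data.

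JSP.1 was 5.94 ± 5.25 CPM in IVP and 6.61 ± 2.96 CPM in IVV in the ED, with a log2 fold change of -0.65 (SE 0.438, adjusted p = 0.426). The IVP libraries were spread on both sides of IVV: 2 lay above every IVV library and 3 below. BOLA-NC1 was 0.387 ± 0.24 CPM in IVP and 0.954 ± 0.533 CPM in IVV, lower by a log2 fold change of -1.51 (SE 0.446, adjusted p = 0.0385). The call was kept in 11 of the other fits and lost in 14, with an adjusted p of up to 0.168, with XIST as a covariate, and up to 0.114 with a library left out, VE28.

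In the EEM, the heavy chains leaned the other way, but neither was called. JSP.1 was 2.95 ± 2.27 CPM in IVP (SD, n = 6) and 1.02 ± 0.689 CPM in IVV (SD, n = 8), with a log2 fold change of 1.67 (SE 0.512, adjusted p = 0.0771). It passed the threshold without IVPF13 (adjusted p = 0.0132), the IVP embryo with the lowest level, at 0.306 CPM. BOLA was 1.1 ± 0.634 CPM in IVP and 0.406 ± 0.41 CPM in IVV (log2 fold change 1.70, SE 0.61, adjusted p = 0.152). BOLA-NC1 had too few counts in the EEM to be tested.

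Whether the tissue difference itself differed between IVP and IVV embryos was tested as an interaction, the signed log2 difference of ED minus EEM in IVP less that in IVV. Of the 9 genes, 0 were called in either direction, against 0.107% of all genes with a positive interaction and 0.918% with a negative one. At an unadjusted p under 0.05, 5 genes had a negative interaction and 0 a positive one, and DESeq2 called 1, TAPBP, which was negative. Of all genes, 7.96% were negative and 2.33% positive at that p, and DESeq2 called 2.59%. In BOLA, JSP.1, TAPBP and NLRC5 a negative interaction meant a smaller excess in the ED of IVP embryos. In PSMB9 it meant a level further below that of the EEM, with a log2 difference of -0.96 in IVP and -0.08 in IVV (interaction -0.88, SE 0.411, adjusted p = 0.468). For BOLA the log2 difference between ED and EEM was 4.29 in IVV and 1.91 in IVP, and the interaction was -2.38 (SE 0.75, adjusted p = 0.161), which passed the threshold with no filter on low counts (adjusted p = 0.0345). For JSP.1 it was 2.98 in IVV and 1.65 in IVP (interaction -1.33, SE 0.538, adjusted p = 0.349).

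B2M, whose product pairs with every class I heavy chain, did not follow the heavy chains between the tissues. It was 52.9 ± 24.4 CPM in the ED (SD, n = 16) and 47.5 ± 22.5 CPM in the EEM (SD, n = 14). It was higher in the ED of 8 of 13 embryos, and the fitted log2 difference of 0.24 (SE 0.158) had an adjusted p of 0.285.

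Levels of B2M in the EEM of the 6 IVP embryos averaged 65.5 ± 20.8 CPM (SD), and those of the 8 IVV embryos averaged 34.0 ± 12.2 CPM (SD). The IVP libraries ran from 44.3 to 101 CPM (median 57.4) and the IVV libraries from 13.6 to 49.5 CPM (median 35.5). Of the 6 IVP libraries, 5 lay above every IVV library, and IVP11 overlapped with VE28. The log2 fold change was 0.93 (SE 0.255, adjusted p = 0.0412). The call was lost in 9 of the 14 fits that left out a library, among which the adjusted p reached 0.102 without IVP10. It was also lost with no surrogate variable (adjusted p = 0.0562), with 2 of them (0.0657), with the title letter as a term (0.057) and with XIST as a covariate (log2 fold change 1.04, adjusted p = 0.397). In the ED, B2M was 63.7 ± 29.2 CPM in IVP and 44.5 ± 17.2 CPM in IVV (log2 fold change 0.35, SE 0.288, adjusted p = 0.544).

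**Figure D3:**
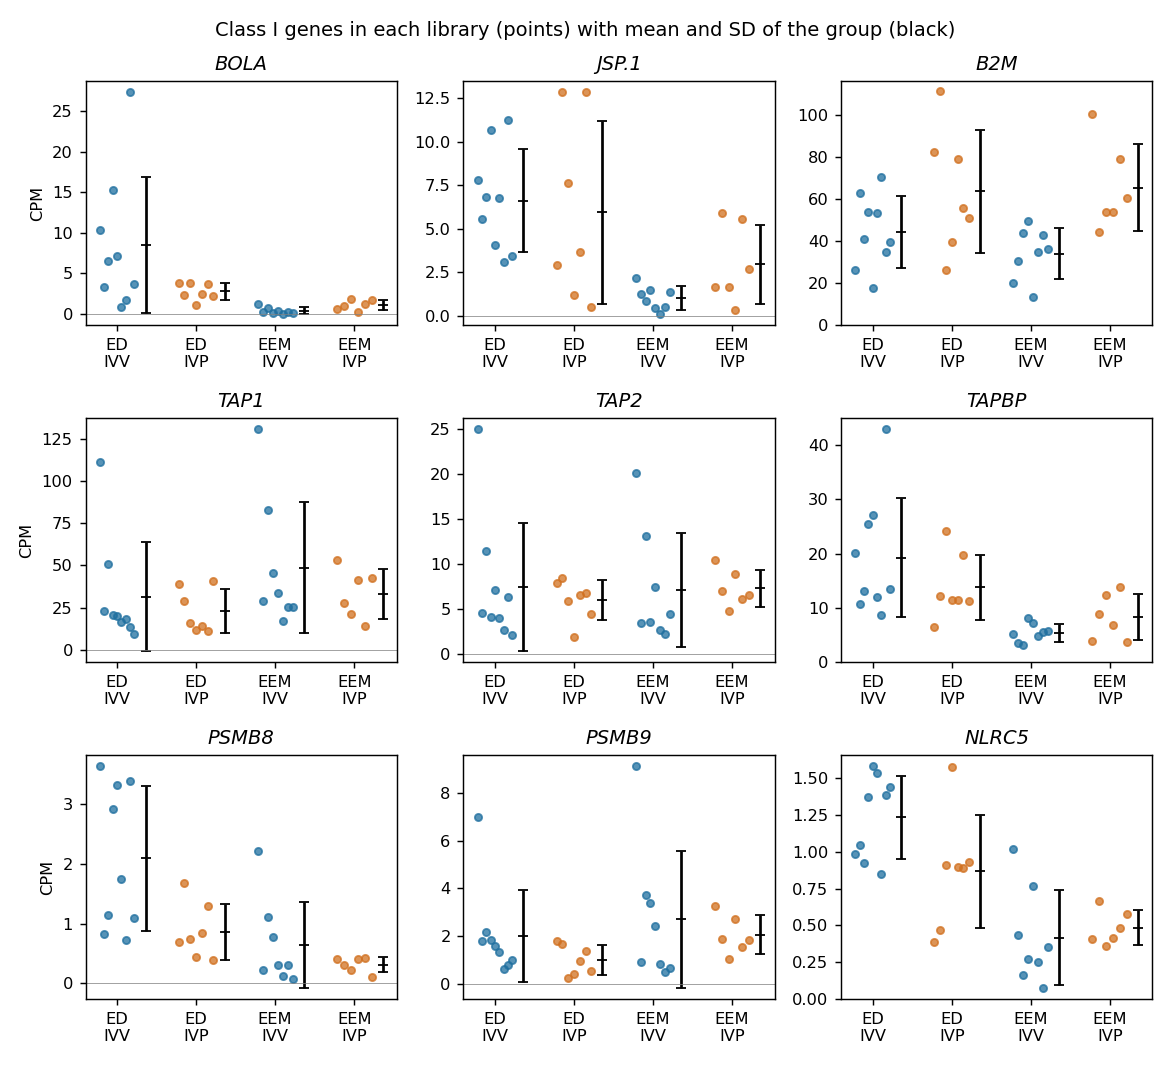
CPM (y axis, linear, a scale for each panel) of the 9 genes in the 4 groups (x axis); each point is a library, and the black bar gives the mean and SD of the group. B2M reaches 44.3 to 101 CPM in the EEM of IVP embryos against 13.6 to 49.5 CPM in IVV, and single IVV embryos stand high for TAP1, TAP2 and PSMB9.

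The genes of the peptide loading complex did not move together between tissues. TAPBP was higher in the ED, TAP1 was lower there, and TAP2 showed no called difference. TAPBP was 16.9 ± 9.31 CPM in the ED (SD, n = 16) and 6.65 ± 3.26 CPM in the EEM (SD, n = 14). It was higher in the ED of 13 of 13 embryos, with a log2 difference of 1.32 (SE 0.192, adjusted p = 3.67e-05). The difference ran from 0.647 to 2.91 in the 8 IVV embryos and from 0.465 to 0.96 in the 5 IVP embryos. The interaction was -1.12 (SE 0.293, adjusted p = 0.0713) and passed the threshold in DESeq2 (adjusted p = 0.021), with no filter on low counts (0.0446) and without VE4 (0.0187).

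TAP1 was 27.7 ± 25.3 CPM in the ED and 42.1 ± 31.0 CPM in the EEM. It was lower in the ED of 12 of 13 embryos, and IVP11 was the exception. The fitted log2 difference was -0.57 (SE 0.116, adjusted p = 0.00122), and single embryos lay between -1.53 in IVPF13 and 0.0665 in IVP11. Levels differed widely between embryos, since TAP1 ran from 9.08 to 111 CPM in the ED and from 13.9 to 131 CPM in the EEM. In the fit without the embryo as a replicate block, TAP1 was not called (log2 difference -0.53, adjusted p = 0.361). TAP2, from 1.94 to 25.0 CPM in the ED and from 2.21 to 20.1 CPM in the EEM, had a log2 difference of 0.14 (SE 0.114, adjusted p = 0.404).

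None of these transport and loading genes was called between IVP and IVV in edgeR in either tissue. In the ED, the log2 fold changes were -0.33 for TAP1 (SE 0.407, adjusted p = 0.709), -0.37 for TAP2 (SE 0.351, adjusted p = 0.612) and -0.53 for TAPBP (SE 0.322, adjusted p = 0.365). In the EEM, they were -0.35 for TAP1 (SE 0.348, adjusted p = 0.831), 0.23 for TAP2 (SE 0.363, adjusted p = 0.943) and 0.68 for TAPBP (SE 0.301, adjusted p = 0.303). TAP1 changed sign in both tissues with XIST as a covariate, and the errors allow differences of either sign for TAP1 and TAP2.

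PSMB8 and PSMB9, whose products work in the same particle, differed in their tissue pattern. PSMB8 was 1.55 ± 1.12 CPM in the ED (SD, n = 16) and 0.501 ± 0.564 CPM in the EEM (SD, n = 14), and was higher in the ED of 13 of 13 embryos. Its log2 difference was 1.87 (SE 0.358, adjusted p = 0.00065), with single embryos between 0.0447 and 4.9. PSMB9 was 1.57 ± 1.55 CPM in the ED and 2.43 ± 2.2 CPM in the EEM. It was lower in the ED of 9 of 13 embryos, among them 5 of 5 IVP embryos, and its log2 difference of -0.41 (SE 0.222) had an adjusted p of 0.185.

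Levels of PSMB8 in the ED averaged 0.865 ± 0.469 CPM in IVP (SD, n = 7) and 2.09 ± 1.21 CPM in IVV (SD, n = 9). The IVP libraries ran from 0.385 to 1.68 CPM (median 0.735) and the IVV libraries from 0.724 to 3.63 CPM (median 1.75). The groups overlapped, with 3 of 7 IVP libraries below every IVV library. The log2 fold change was -1.55 (SE 0.365, adjusted p = 0.00982). PSMB8 was called in 16 of 16 fits that left out a library, at adjusted p values from 0.00478 to 0.0354, and was lost with no surrogate variable (adjusted p = 0.0616).

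PSMB9 leaned the same way in the ED, at 1.01 ± 0.626 CPM in IVP and 2.01 ± 1.93 CPM in IVV, without being called (log2 fold change -1.12, SE 0.365, adjusted p = 0.0629). It was called in DESeq2 (adjusted p = 0.0215) and in 3 of 16 fits that left out a library. In the EEM, the log2 fold changes were -0.67 for PSMB8 (SE 0.504, adjusted p = 0.706) and 0.09 for PSMB9 (SE 0.395, adjusted p = 0.987).

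**Figure D4:**
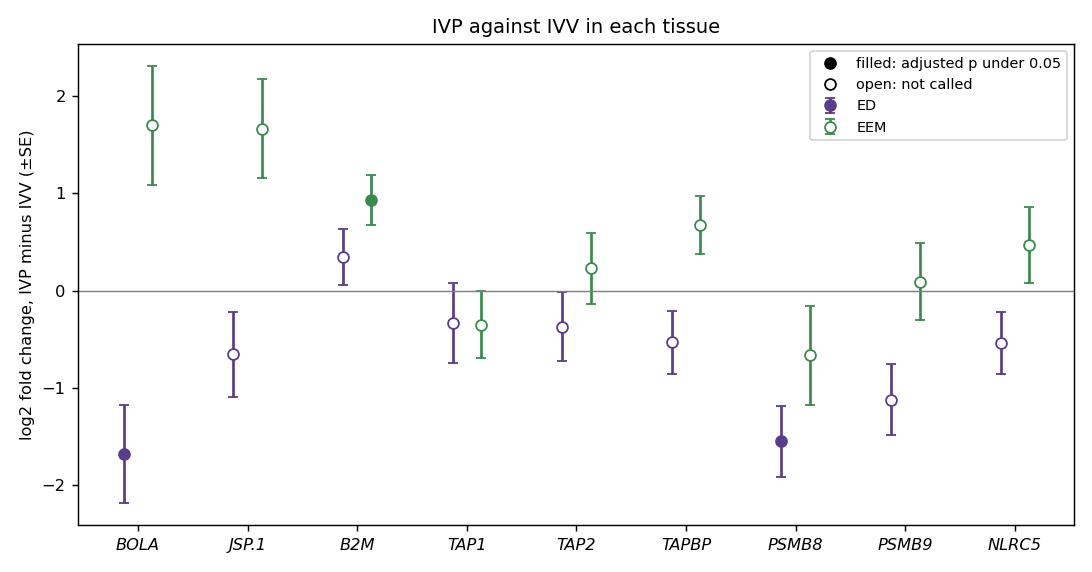
Log2 fold change of IVP minus IVV with its SE (y axis) for the 9 genes (x axis) in the ED and the EEM; filled points passed an adjusted p of 0.05. In the ED, 8 of 9 points lie below 0 and BOLA and PSMB8 are filled, while in the EEM 7 of 9 lie above 0 and B2M is filled.

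NLRC5, the transactivator of class I genes, was scarce but higher in the disc. It was 1.07 ± 0.37 CPM in the ED (SD, n = 16) and 0.447 ± 0.248 CPM in the EEM (SD, n = 14). It was higher in the ED of 10 of 13 embryos, and IVP10, IVP11 and VE19 were the exceptions. The log2 difference was 1.32 (SE 0.314, adjusted p = 0.00421). In the ED, it was 0.865 ± 0.385 CPM in IVP and 1.23 ± 0.281 CPM in IVV (log2 fold change -0.54, SE 0.318, adjusted p = 0.349). In the EEM, it was 0.485 ± 0.116 CPM in IVP and 0.418 ± 0.32 CPM in IVV (log2 fold change 0.47, SE 0.393, adjusted p = 0.761).

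A single IVV embryo, VE19, stood out for TAP1, TAP2 and PSMB9 in both of its tissues. It was singled out after its values were seen. TAP1 was 111 CPM in its ED and 131 CPM in its EEM, 5.83 and 4.49 times the median of the other IVV embryos. TAP2 was 25.0 and 20.1 CPM, or 5.78 and 5.61 times that median. PSMB9 was 6.98 and 9.11 CPM, or 4.77 and 9.71 times it. VE26 came next for these 3 genes among the IVV embryos in both tissues, with TAP1 at 50.7 CPM in the ED and 82.6 CPM in the EEM.

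The other genes of the pathway did not all stand high in VE19. PSMB8 was the highest of the IVV libraries in both of its tissues, while BOLA and JSP.1 ranked 1 of 8 in its EEM and 3 of 9 in its ED. B2M was low there, at 26.4 CPM in the ED and 20.3 CPM in the EEM, and was lower only in VE29 among IVV embryos. NLRC5 ranked 7 of 9 in the ED and 1 of 8 in the EEM. IRF1, an interferon-induced activator, was 0.12 CPM in the ED and 0.0212 CPM in the EEM of VE19, the lowest IVV value in each tissue, on 6 counts and 1 count. Summed leukocyte markers were higher in VE19 than in any other library of the same tissue, at 24.9 CPM in the ED and 29.3 CPM in the EEM. CD68, a lysosomal protein of macrophages that other cells can express, made up 14.2 and 18.5 CPM of these sums. Without CD68 the sum was 10.8 CPM in each tissue of VE19, within the range of the other libraries, and PTPRC had 10 counts in its ED and 0 in its EEM.

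**Figure D5:**
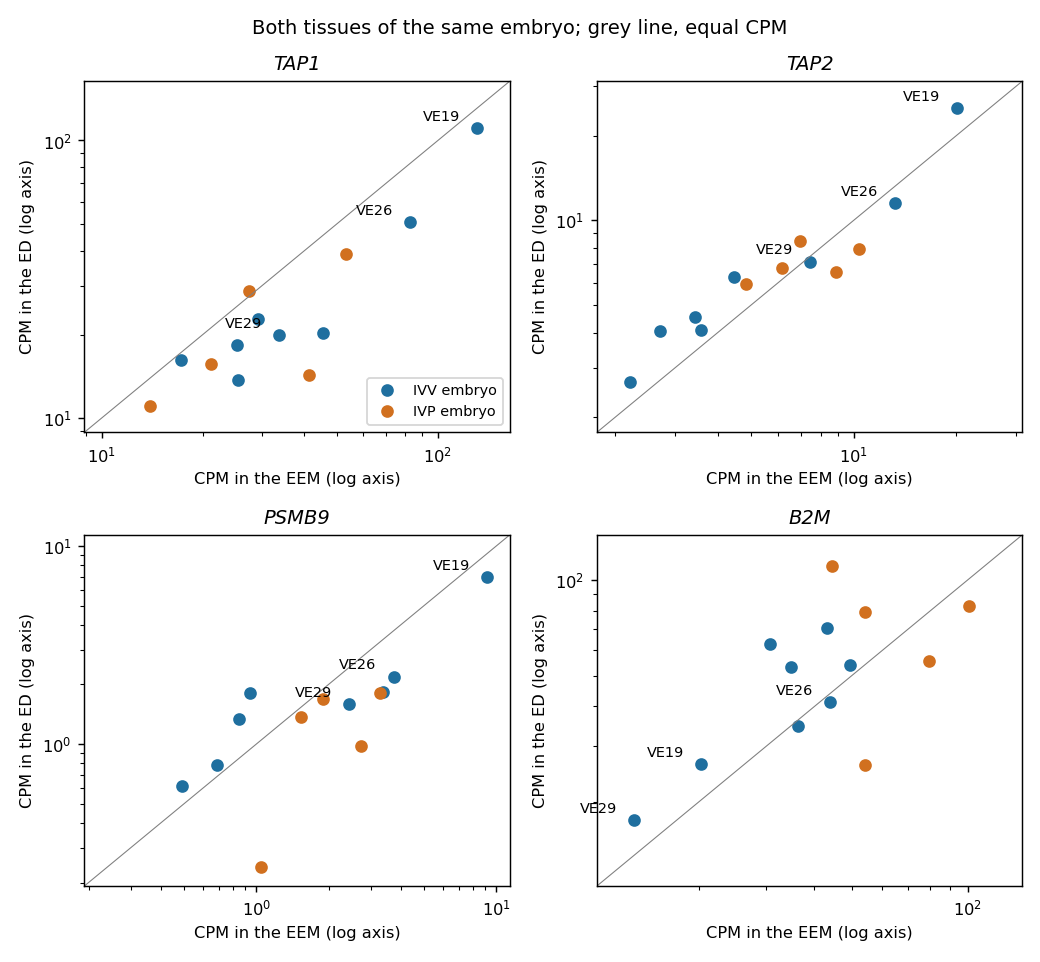
CPM in the ED (y axis) against CPM in the EEM (x axis), both on log axes, for TAP1, TAP2, PSMB9 and B2M in the 13 embryos with both tissues; the grey line marks equal CPM. VE19 is highest in both tissues for TAP1, TAP2 and PSMB9 and low in both for B2M.

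TAP1, TAP2 and PSMB9 varied together over libraries. Over the 30 libraries, Pearson's r of log2 CPM was 0.717 for TAP1 with TAP2, 0.74 for TAP1 with PSMB9 and 0.744 for TAP2 with PSMB9. Within the 16 ED libraries these values were 0.749, 0.632 and 0.671, and within the 14 EEM libraries 0.742, 0.819 and 0.857. PSMB8, although next to TAP1, had r = 0.0769 with it over all libraries, 0.162 in the ED and 0.719 in the EEM. These values are descriptions, since libraries share embryos and the same few embryos are high for several genes.

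Among 14359 other genes with a symbol, those whose log2 CPM was most like a gene of the pathway over the 30 libraries were also listed. For BOLA they were BRINP1 (r = 0.885), RGL3 (r = 0.879) and BOLA-NC1 (r = 0.878). For JSP.1 they were SLC16A7 (r = 0.819), HAAO (r = 0.808) and BOLA-NC1 (r = 0.797). For TAPBP they were EMP2 (r = 0.919), MAP1B (r = 0.914) and SLC29A2 (r = 0.908), for NLRC5 ITGA9 (r = 0.882), ULBP21 (r = 0.857) and CILP2 (r = 0.853), and for PSMB8 DOC2G (r = 0.901), OXT (r = 0.873) and PGLYRP1 (r = 0.867). For TAP1 they were ASCL2 (r = 0.804), MOK (r = 0.78) and ACRV1 (r = 0.748), and for TAP2 CIST1 (r = 0.775) and PAGE4 (r = 0.735). For PSMB9 they were PUSL1 (r = 0.818), PIN4 (r = 0.801) and RPLP1 (r = 0.794), and for B2M BCAP29 (r = 0.765), FAM221A (r = 0.762) and TRIQK (r = 0.746). The points share embryos and hold both tissues, so these values include the difference between tissues.

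Other genes of antigen processing were taken from lists chosen with results of these data known. Of 9 genes of peptide loading and trimming, 2 were higher and 2 lower in the ED, where 14.4% of all genes were called higher and 10.1% lower. Their median log2 difference was -0.09, as was that of all genes tested. The peptidases that trim peptides for class I were the ones that were higher: ERAP2 by 5.30 (SE 0.515, adjusted p = 3.13e-07) and ERAP1 by 2.36 (SE 0.38, adjusted p = 0.000112). ERAP2 was 2.51 ± 1.72 CPM in the ED of IVV embryos (SD, n = 9) and 0.0574 ± 0.0528 CPM in their EEM (SD, n = 8). The chaperone genes PDIA3 (log2 difference -0.32, adjusted p = 0.0292) and UGGT1 (-0.31, adjusted p = 0.0358) were the lower ones.

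Of 15 genes for proteasome subunits, activators and cytosolic peptidases, 14 were tested. In the ED 0 were higher, against 14.4% of all genes, and 2 were lower, a share near the 10.1% of all genes. The lower ones were PSMB6, a constitutive catalytic subunit (log2 difference -0.34, SE 0.0807, adjusted p = 0.00444), and PSME4, an activator (-0.26, SE 0.0755, adjusted p = 0.0174). PSMB10, the third subunit particular to the immunoproteasome, had a log2 difference of -0.09 (SE 0.114, adjusted p = 0.593). In the ED, 1 of the 14 was lower in IVP (5.08% of all genes were), PSME1, a subunit of the interferon-induced activator. It was 20.7 ± 9.93 CPM in IVP and 32.2 ± 11.3 CPM in IVV (log2 fold change -0.87, SE 0.22, adjusted p = 0.0152).

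Of 15 transcription factors that bind or serve the class I promoter, 3 were higher and 1 lower in the ED, shares not far from the 14.4% and 10.1% of all genes. CIITA, the class II transactivator, was higher by 3.91 (SE 0.572, adjusted p = 3.94e-05). IRF1 was higher by 2.86 (SE 0.452, adjusted p = 9.4e-05) and IRF2 by 1.91 (SE 0.368, adjusted p = 0.000708). RFXAP, a subunit of the RFX complex, was lower (log2 difference -0.57, SE 0.145, adjusted p = 0.00672). Levels were low: CIITA was 0.66 ± 0.51 CPM in the ED of IVV embryos and 0.0358 ± 0.0402 CPM in their EEM.

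Of 15 genes of interferon receptors and signalling, 14 were tested and 1 was called higher in IVP in each tissue, against 1.84% of all genes in the ED and 2.08% in the EEM. IRF9, the DNA-binding part of the type I interferon complex, was higher in the EEM of IVP embryos, at 4.49 ± 1.49 CPM against 2.15 ± 1.02 CPM (log2 fold change 1.22, SE 0.285, adjusted p = 0.015). USP18, a feedback inhibitor of the pathway, was higher in the ED of IVP embryos, at 17.4 ± 5.46 CPM against 9.87 ± 3.03 CPM (log2 fold change 0.86, SE 0.221, adjusted p = 0.018). Between tissues, 0 of the 14 were called over all embryos or in IVP embryos. Within IVV embryos 1 was higher in the ED, against 15.6% of all genes. It was IFNGR2, a receptor chain for interferon gamma (log2 difference 0.63, SE 0.219, adjusted p = 0.0471).

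Of 13 class II genes, 7 had enough counts to be tested between tissues, and 6 were higher in the ED, against 14.4% of all genes. They were BOLA-DRB3 (log2 difference 6.26, SE 0.678, adjusted p = 1.15e-06), BOLA-DOA, BOLA-DMB, BOLA-DRA, CD74 and LOC100848815. CD74, the invariant chain, was 4.34 ± 3.35 CPM in the ED of IVV embryos and 0.246 ± 0.15 CPM in their EEM. In the ED, 5 of the 6 tested were lower in IVP, against 5.08% of all genes, among them CD74 (log2 fold change -2.05, SE 0.456, adjusted p = 0.00651) and BOLA-DRB3 (-2.78, SE 0.572, adjusted p = 0.00352). Among 13 class I-like genes, of which 4 were tested, RAET1G, a ligand of a natural killer cell receptor, was higher in the ED of IVP embryos, at 1.96 ± 1.77 CPM against 0.195 ± 0.107 CPM (log2 fold change 3.47, SE 0.753, adjusted p = 0.00526). Of the 7 IVP libraries, 2 held at most 3 counts of it. BOLA-NC1 belongs to this list too, so that 1 of the 4 was higher and 1 lower in IVP, against 1.84% and 5.08% of all genes.

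Markers of other cell types moved with some of these results. Of 21 leukocyte markers, 14 were tested between tissues and 6 were higher in the ED, against 14.4% of all genes, among them ITGB2 (log2 difference 1.71, adjusted p = 0.00799), CD3D and LAPTM5. Within IVV embryos 6 of the 14 were higher, against 15.6% of all genes, while within IVP embryos 1 was lower, CD52, against 0.649%. CD52 and ITGB2 had a negative interaction, against 0.918% of all genes. The summed level of the 21 markers was 12.5 to 23.3 CPM in the ED of IVP, 14.9 to 24.9 CPM in the ED of IVV, 11.9 to 20.8 CPM in the EEM of IVP and 5.83 to 29.3 CPM in the EEM of IVV. In the EEM, where B2M was higher in IVP, the median of that sum was 16 CPM in IVP and 9.25 CPM in IVV, whose highest library was VE19. Of 10 leukocyte markers tested there, CD8A was called higher in IVP (2.08% of all genes were), at 2.67 ± 1.11 CPM against 0.996 ± 0.346 CPM (log2 fold change 1.47, adjusted p = 0.00605), and the median log2 fold change of the 10 was 0.90, against 0.00499 for all genes. Maternal uterus markers had a median summed level of 24.9 CPM in IVP and 18.3 CPM in IVV in the EEM. The median log2 fold change was 0.89 over 5 tested, of which MUC1 had the lowest adjusted p (0.0694) and was not called. Among the uterus markers, PAEP had 0 counts in every library and SERPINA14 at most 2. The EEM sum was mostly MUC1 and FOXL2, with means of 15.2 and 8.45 CPM in IVP and 8.71 and 4.33 CPM in IVV. In the ED of IVV, MSX1 had the highest mean, 23.3 CPM. Whether maternal tissue was present was not tested. In the ED, where BOLA and PSMB8 were lower in IVP, 3 of 8 uterus markers tested were lower in IVP (MSX1, LTF and DCN) and 2 higher (FOXL2 and MUC1), against 5.08% and 1.84% of all genes, with a median log2 fold change of -0.42. PTPRC, the pan-leukocyte marker, had 0 counts in each ED library of IVP, at most 64 counts in the ED of IVV and at most 2 in the EEM. AIF1 had 0 counts in all 30 libraries. Of 12 tested in the ED, ITGB2 and CORO1A were lower in IVP and CD8A was higher, against 5.08% and 1.84% of all genes. The part of leukocytes in the differences of class I genes was not tested.

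Of 7 epiblast markers, 6 were tested between tissues and 5 were higher in the ED, against 14.4% of all genes. In the IVP embryos alone 3 of the 6 were, against 4.18%. Summed epiblast markers were 68.7 to 218 CPM in the ED of IVP, 97.7 to 440 CPM in the ED of IVV and 14.7 to 84.5 CPM in the EEM. NANOG was 18.1 ± 12.0 CPM in the ED of IVV, 7.13 ± 3.63 CPM in the ED of IVP and at most 10 counts in any EEM library. SOX2 was listed at 0 in all 30 libraries. Of 5 epiblast markers tested between procedures in the ED, 2 were lower and 1 higher in IVP, against 5.08% and 1.84% of all genes, with a median log2 fold change of -0.0363. The lower ones were POU5F1 (log2 fold change -1.73, adjusted p = 0.00359) and NANOG (-1.43, adjusted p = 0.0287), and the higher one was DPPA4, at 6.29 ± 2.38 CPM in IVP and 2.86 ± 0.892 CPM in IVV (1.09, adjusted p = 0.0127). LIN28A (0.21, adjusted p = 0.674) and NODAL (-0.04, adjusted p = 0.98) were not called. Of 8 markers of mesoderm and endothelium tested, 5 were lower in IVP, against 5.08% of all genes, among them KDR, a receptor of endothelial and mesoderm precursors (-4.89, adjusted p = 2.07e-05). Summed markers of mesoderm and endothelium were 9.93 to 58.1 CPM in the ED of IVP and 31.6 to 170 CPM in the ED of IVV. In the EEM they were 8.76 to 28.8 CPM in IVP and 6.9 to 25.8 CPM in IVV. Between tissues, 5 of 8 were higher in the ED, against 14.4% of all genes. In IVV embryos 6 of 8 were higher (15.6% of all genes) and in IVP embryos 2 of 8 (4.18%). A negative interaction was called for 2 of 8, against 0.918% of all genes. Trophoblast markers were abundant in both tissues, at 6208 to 42912 CPM in the ED and 11395 to 62529 CPM in the EEM. Of 12 tested between tissues, 4 were lower in the ED and 0 higher, against 10.1% and 14.4% of all genes. In IVV embryos 4 were lower, against 6.55% of all genes, and in IVP embryos 0, against 0.649%. Summed markers of maternal uterus were 19.4 to 45.2 CPM in the ED and 9.1 to 39.7 CPM in the EEM. Of 8 tested between tissues, 2 were higher in the ED and 0 lower, against 14.4% and 10.1% of all genes. Red blood cell markers summed to 3.3 to 42.8 CPM in the ED and 0.576 to 8.65 CPM in the EEM. That sum was mostly ALAS2, at 3.19 to 42.5 CPM and 0.342 to 8.17 CPM, while HBB had at most 4 counts in any library. Summed hypoblast markers were 2119 to 7837 CPM in the ED and 1724 to 7150 CPM in the EEM. The part of cell make-up in the lower BOLA and PSMB8 was not tested.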

How the data were processed

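Libraries were poly(A) selected and not stranded. Read filtering used SOAPnuke according to the study, while the submitters' processing notes name Trimmomatic. Alignment was with STAR 2.7.0b on ARS-UCD1.3, and featureCounts of Subread 2.0.3 gave counts at the gene level. The values the authors deposited are raw counts per Entrez ID and library, with totals from 48713218 to 63037371. Symbols came from the RefSeq table of ARS-UCD2.0, matched by gene ID. Of its positions, only gene order and overlap were used, and no coordinates are given, since its build differs from that of the counts. The 9 genes and all lists were chosen with earlier results of these data known. Of 154 symbols in the lists, 153 were matched.

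The main tool was edgeR 4.0.16, run in R 4.3.3 (TMM, filterByExpr with at least 10 counts, quasi-likelihood test, Benjamini-Hochberg adjustment over all genes tested, threshold 0.05). IVP and IVV were compared per tissue with 1 surrogate variable (sva 3.50.0) from the filtered counts, since the study controlled for morphology with sva. ED and EEM were compared in 26 libraries with the embryo, named in the titles, as a block. Deviations from the group means of the ED and EEM of an embryo correlated at -0.19 to 0.639 (median 0.401), and 12 of 13 ED libraries correlated best with their own EEM within the procedure. CPM used TMM factors over all 30 libraries, and log2 CPM a prior count of 2. Named were all 9 genes, other class I heavy chain rows, the 3 genes with the smallest p per pathway list past the threshold, and the 3 genes most correlated with each gene of the pathway, except items not reported here. PSMB10, UGGT1, RFXAP, further class II genes and markers were named after their values were seen.

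Alternatives were DESeq2 1.42.0, relative log expression scaling, other filters, other numbers of surrogate variables, XIST or the letter that ends a title as a term, no block, and each embryo left out. Added after seeing the data were a surrogate variable from scaled counts and halved counts, since even counts were more frequent than odd ones (19289 entries of 2 counts, 15257 of 1), as when each mate of a read pair is counted. Of the libraries, 0 pairs held identical counts. Each library is 1 embryo. The IVV embryos came from a pair of donors and the IVP embryos from a pair of recipients, so p-values measure the spread between embryos that share cows. Methylation data were not analysed here.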

Additional observations from a re-analysis of the deposited data

Results flagged for a closer look

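Of 44 combinations of gene and group examined (the 9 genes, BoLA and BOLA-NC1 in 4 groups), 4 had a library whose gap to the nearest other library exceeded Dixon's 95% critical value. Chance flags about 1 in 20 groups where values are normally distributed. The test used CPM and not log2 CPM, and a high value stands out more on the CPM scale, so the flags depend on the scale. All 4 flags were the IVV embryo VE19, and the values are not independent, since they come from 1 embryo. In the ED, TAP1 was 111 CPM (next 50.7), TAP2 was 25.0 CPM (next 11.5) and PSMB9 was 6.98 CPM (next 2.19). In the EEM, PSMB9 was 9.11 CPM (next 3.73). Leaving out VE19 kept all 6 tissue calls. Without it TAP1 in the ED had a log2 fold change between IVP and IVV of 0.13, against -0.33 with it, and neither was called.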

How the results depend on the processing

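The tissue calls were the steadiest. The 6 genes called between ED and EEM were called in every fit that left out an embryo, in DESeq2 and with relative log expression scaling, no filter or halved counts. Over all genes, the fits without an embryo called 3149 to 4439. DESeq2 called 4515 of 16784, relative log expression scaling 3713 of 16784, no filter 3895 of 24105 and halved counts 3841 of 15165. With at least 10 counts in every library, 5 of the 9 genes could be tested and 2 were called over all embryos, 2 in IVV and 0 in IVP embryos. Of all 12106 genes tested under that filter, 1828 were called over all embryos, 1420 in IVV and 194 in IVP embryos. Without the replicate block, 5 genes were called over all embryos and 5 in IVV embryos, since TAP1 was lost, and 0 in IVP embryos, where JSP.1 was lost. No other call of the 9 genes changed without the block. Of all 16784 genes, calls without it were 2127 over all embryos, 2268 in IVV and 598 in IVP embryos, against 4104, 3711 and 810 with it. In IVP embryos, where 1 gene was called, the count was 2 in DESeq2, with no filter and with halved counts, and 0 to 2 with embryos left out (0 without IVP14 or IVPF13, and 2 without VE19, VE28, VE4 or VE5). Over all genes there, calls were 1201 of 16784 in DESeq2, 1006 of 24105 with no filter and 804 of 15165 with halved counts. With embryos left out they were 473 to 851. For the interaction, with 0 genes called, the count was 1 in DESeq2, 2 with no filter, and 0 to 1 with embryos left out (1 without VE4). Over all genes, interaction calls were 435 of 16784 in DESeq2, 356 of 24105 with no filter and 211 of 16670 without VE4.

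In the ED, where 2 genes were called between IVP and IVV, the count was 1 with no surrogate variable, with 2 of them, with at least 10 counts in every library, with the title letter and with the surrogate variable from scaled counts, and 1 to 3 with libraries left out. The count of 1 arose without IVP11, IVP14, IVPF10, IVPF13, IVPF14, IVPF15, VE19, VE26, VE29 or VE5. Of all 15733 genes in the ED, 1088 were called in the main fit. In the named settings, calls were 934 with no surrogate variable, 787 with 2, 991 with the title letter and 998 with scaled counts. They were 510 of 12866 under the strict filter and 601 to 1254 with libraries left out. In the EEM, where 1 gene was called, the count was 0 with no or 2 surrogate variables, with XIST and with the title letter, 2 with no filter, and 0 to 2 with libraries left out. It was 0 without IVP10, IVPF14, VE19, VE24, VE26, VE29, VE3, VE4 or VE5 and 2 without IVPF13. Of all 14718 genes in the EEM, 515 were called in the main fit. In the named settings, calls were 376 with no surrogate variable, 565 with 2, 133 with XIST and 388 with the title letter. They were 1103 of 22736 with no filter and 383 to 615 with libraries left out. The cause of these changes was not tested, except that fewer genes were tested under the strict filter.

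Signs changed only in log2 differences that were not called. With XIST, TAP1 was 0.37 in the ED and 0.58 in the EEM, and PSMB8 was 0.92 in the EEM. With no surrogate variable, PSMB9 in the EEM was -0.40. B2M between tissues in IVP embryos was 0.0574 without the block, 0.00648 in DESeq2, 0.00664 with relative log expression scaling and 0.0170 with the strict filter. The interaction of TAP1 was -0.0777 without the block and -0.0145 with the strict filter. With libraries or embryos left out, ranges were -0.677 to 0.00786 for BoLA and -0.61 to 0.129 for TAP1 in the ED, and -0.797 to 0.125 for PSMB8, -0.117 to 0.737 for PSMB9 and -0.539 to 0.105 for TAP1 in the EEM. Between tissues they were -0.222 to 0.0343 for PSMB9 in IVV embryos, and -0.326 to 0.229 for B2M and -0.146 to 0.0387 for TAP2 in IVP embryos, and -0.103 to 0.247 for the interaction of TAP1. Counts limit BOLA, BOLA-NC1, BoLA, NLRC5 and PSMB8 in the EEM, where the lowest library of each held 0 to 4 counts, and JSP.1, where it held 5.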
